A study of Mus musculus with 12 samples.

Results

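The 7 genes described here encode the antigen-presenting machinery of major histocompatibility complex (MHC) class II and its master regulator. They are the class II chain genes H2-Aa, H2-Ab1 and H2-Eb1, the invariant chain gene Cd74, the peptide editor genes H2-DMa and H2-DMb1, and the transactivator gene Ciita. They were chosen by name among 35869 genes in the table, and all 7 passed the filter on low counts. The RNA came from mouse bone marrow haematopoietic stem cells (HSCs) sorted on CD41. The knockout (KO) groups, CD41pos KO and CD41neg KO, came from mice of genotype MxCre1+/-,RUNX1f/f, and the control (WT) groups, CD41pos WT and CD41neg WT, from mice of genotype MxCre1-/-,RUNX1f/f, with 3 libraries in each group. All mice therefore carried the floxed Runx1 alleles, and all received 4 injections of poly(I:C) and were sampled 4 weeks after them. MxCre1 is driven by an interferon-inducible promoter, poly(I:C) is a double-stranded RNA and an interferon inducer, and such a driver is active in many cell types besides HSCs. Interferon is also an inducer of antigen presentation genes, and no group without poly(I:C) was analysed here. The labels do not give the age of the mice. CD41, the product of Itga2b, marks megakaryocyte-primed HSCs, and the study asked how loss of RUNX1, a transcription factor of blood formation, alters the CD41pos and CD41neg HSCs.

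MHC class II proteins display peptides from endocytosed protein to CD4+ T cells. An alpha and a beta chain (H2-Aa with H2-Ab1 form I-A, and H2-Eb1 is the beta chain of I-E) assemble on the invariant chain CD74, whose remnant CLIP is exchanged for peptide with the help of the H2-DM heterodimer. H2-O, a heterodimer of the H2-Oa and H2-Ob products, inhibits H2-DM. Ciita encodes a coactivator without DNA-binding activity of its own, which is recruited to class II promoters by a complex of RFX, CREB and NF-Y bound to the X and Y boxes. Dendritic cells, B cells and macrophages are the best known class II expressing cells, and a lower level has been described in HSCs.

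The promoter boxes to which this complex binds were looked up in RefSeq promoters of the GRCm38.p6 build, since they are the sequence that the class II genes share. H2-Aa, H2-Eb1, H2-DMa and H2-DMb1 of the 7 genes were matched there by symbol, as were H2-DMb2, H2-Ob, H2-Oa and H2-Eb2 of the same region. The searches covered the 250 bases before the annotated start on both strands, with the letters AACNNATG for the X box, TGATTGG for the Y box and TGACGTCA for the cyclic AMP response element (CRE), and none of these motifs overlapped another in the windows shown. The letters were chosen after these promoters had been read. Each sequence runs 5′ to 3′ in the direction of transcription, with the matched letters in capitals.
H2-Aa (chr17:34287861-34287903, minus strand): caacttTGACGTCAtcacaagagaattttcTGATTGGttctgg
H2-Eb1 (chr17:34305772-34305818, plus strand): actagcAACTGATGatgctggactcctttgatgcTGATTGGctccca
H2-Ob (chr17:34238814-34238858, plus strand): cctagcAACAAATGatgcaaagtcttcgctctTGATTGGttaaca
H2-DMb2 (chr17:34145122-34145169, plus strand): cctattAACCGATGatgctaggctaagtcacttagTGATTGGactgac
H2-Eb1, H2-Ob and H2-DMb2 held X box letters followed by Y box letters after 20, 18 and 21 bases. H2-DMb1 held the same pair, 21 bases apart, in a stretch that GENCODE vM21 annotates as 5′ untranslated exon. In H2-Aa the Y box letters followed CRE letters after 16 bases. Of 32851 promoters of this length, 7.71% held the X box letters, 7.23% the Y box letters and 1.55% the CRE letters. X box letters followed by Y box letters after 10 to 30 bases were found in 15 promoters (0.0457%), and 5 of these were H2-DMb2, H2-DMb1, H2-Ob, H2-Eb1 and H2-Eb2. H2-Oa had the Y box letters only, and the 2 RefSeq promoters of H2-DMa held none of these letters in this window. A match describes letters and is no evidence of binding in these cells.

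**Figure D1:**
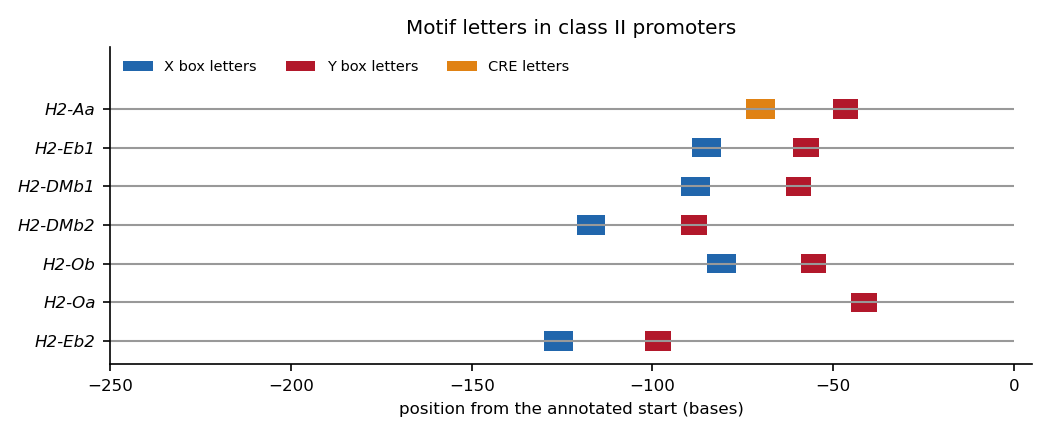
Matches of X box (blue), Y box (red) and CRE (orange) letters by position in bases before the annotated start (x axis) in 7 class II region genes. The Y box letters lie between 39 and 102 bases before the start in these genes, with X box or CRE letters upstream of them in 6 of the 7.

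In the GRCm38 (mm10) build the class II genes lie together on chromosome 17, as spans of the whole protein-coding gene in GENCODE vM21. H2-DMa spans 34119541 to 34139101 (plus strand), H2-DMb1 34153072 to 34160230 (plus strand), H2-Ab1 34257689 to 34269419 (plus strand), H2-Aa 34282744 to 34287823 (minus strand) and H2-Eb1 34305867 to 34316674 (plus strand). Cd74 spans 60803848 to 60812652 on chromosome 18 (plus strand) and Ciita 10480059 to 10528418 on chromosome 16 (plus strand). The library kit does not mark the strand. Exons of the opposite-strand gene Brd2 overlap 10.4% of the exon bases of H2-DMa, and exons of Dexi overlap 3.45% of those of Ciita, so reads from these stretches cannot be assigned to either gene. H2-DMb1 and H2-DMb2 are neighbouring paralogs, and the sources used here do not state how shared reads were counted, so their values are uncertain to that extent.

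Gene counts summed to between 44108035 and 58946457 per library. Levels are read counts scaled to library size by TMM (CPM) unless TPM, which also adjusts for transcript length, is named, and SDs are over n = 3 libraries. Changes are log2 fold changes ± SE of edgeR's quasi-likelihood test, with p-values adjusted (Benjamini-Hochberg) across the 19395 genes tested and a threshold of 0.05. Whether each library stands for its own animal is not stated in the labels, so the p-values measure a spread that may be technical in part. Itga2b followed the gate, with 1028 to 1268 CPM in CD41pos KO, 551 to 683 CPM in CD41pos WT, 213 to 270 CPM in CD41neg KO and 49.6 to 138 CPM in CD41neg WT. The gene total of Runx1 was higher in KO (1.13 ± 0.15 in CD41pos and 1.03 ± 0.15 in CD41neg HSCs). That total also holds exons kept after recombination, and so does not check the deletion. All 10 HSC marker genes on the list, among them Kit, Mecom and Procr, were above 1 CPM in at least 1 library of each group. Within WT, the 4 libraries numbered up to 6 (CD41pos WT 1 and 4, CD41neg WT 2 and 4) stood apart with 18.6 to 27.7 CPM of the immediate early gene Nr4a1, against 237 to 396 CPM in the other 8 libraries. KO 1 and KO 3 had about 1 CPM of Xist in either gate, whereas KO 2 had 318 CPM in CD41pos and 308 CPM in CD41neg cells and every WT library at least 113 CPM. Xist and Y-linked genes mark sex. Libraries with about 1 CPM of Xist occurred in KO only, so sex was not balanced between the genotypes. The KO libraries carry higher library numbers (13 to 22) than the WT libraries (1 to 10), so genotype and library order cannot be told apart.

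Compared per length, the genes were far from equal in level, and their order changed with the group. In CD41pos KO cells the order was H2-Ab1 (239 ± 106 TPM), H2-DMb1 (109 ± 13.0 TPM), H2-Aa (99.3 ± 87.6 TPM), Cd74 (48.7 ± 9.46 TPM), H2-DMa (38.5 ± 2.75 TPM), H2-Eb1 (38.1 ± 38.1 TPM) and Ciita (0.233 ± 0.153 TPM). In CD41neg WT cells Cd74 came first with 392 ± 200 TPM, followed by H2-Ab1 (381 ± 133 TPM), H2-Aa (215 ± 106 TPM), H2-DMb1 (113 ± 21.7 TPM), H2-Eb1 (103 ± 48.7 TPM), H2-DMa (32.8 ± 3.32 TPM) and Ciita (0.5 ± 0.1 TPM). Most neighbours in these orders overlapped between libraries. Cd74 and H2-DMb1 did not overlap in either group. Cd74 was at 40.6 to 59.1 TPM in CD41pos KO cells, where H2-DMb1 was at 99.4 to 124 TPM, and it was at 260 to 623 TPM in CD41neg WT cells, where H2-DMb1 was at 91.2 to 135 TPM. In CD41neg KO cells Cd74 (112 to 164 TPM) lay above H2-DMb1 (91.3 to 99.6 TPM) in every library. In CD41pos WT cells the ranges of Cd74 (94.9 to 229 TPM) and H2-DMb1 (156 to 203 TPM) overlapped.

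Cd74, which encodes the invariant chain, fell in KO cells of both gates. It measured 32.1, 46.3 and 35.5 CPM in CD41pos KO 1, 2 and 3, against 78.3, 119 and 183 CPM in CD41pos WT 1, 3 and 4. CD41neg cells held 123, 88.9 and 121 CPM in KO 1, 2 and 3, against 496, 216 and 278 CPM in WT 2, 3 and 4. No KO library reached a WT library of its gate. The change was -1.74 ± 0.33 in CD41pos cells (adjusted p = 0.00743), 3.33-fold lower, and -1.57 ± 0.33 in CD41neg cells (adjusted p = 0.0179), 2.97-fold lower. Cd74 was also lower in CD41pos than in CD41neg cells of the same genotype, with a change of -1.55 ± 0.33 in KO (adjusted p = 0.0279) and of -1.38 ± 0.33 in WT (adjusted p = 0.0317). Lowest of the 4 groups was CD41pos KO with 38.0 ± 7.43 CPM and highest was CD41neg WT with 330.2 ± 147 CPM, while CD41pos WT (127 ± 52.6 CPM) and CD41neg KO (111 ± 19.2 CPM) lay between and overlapped each other. The CD41neg call was lost when the model held a term for the 4 WT libraries that stand apart (-1.22, adjusted p = 0.0671) or without CD41neg KO 1, 2 or 3 or CD41neg WT 2 (at most adjusted p = 0.0631, without KO 2). Between gates the KO call was lost when any KO library other than CD41neg KO 2 was left out (at most adjusted p = 0.124, without CD41pos KO 3) and the WT call without CD41pos WT 1 or 3, CD41neg WT 2 or 4, CD41pos KO 3 or CD41neg KO 3 (at most 0.112, without CD41neg WT 2). In sorted bulk samples, fewer cells that hold a transcript and less of it per cell cannot be told apart.

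The class II chain genes were lower on average in KO in both gates, but their KO libraries did not agree and no chain gene passed the unpaired test. H2-Aa, the alpha chain of I-A, measured 11.9, 63.3 and 19.0 CPM in CD41pos KO 1, 2 and 3, against 45.6, 88.5 and 98.6 CPM in CD41pos WT 1, 3 and 4. The CD41neg libraries measured 26.4, 64.7 and 31.8 CPM in KO 1, 2 and 3, against 105, 68.1 and 44.6 CPM in WT 2, 3 and 4. KO 1 and KO 3 lay below every WT library of their gate, and KO 2 lay within the WT range in both. The change was -1.30 ± 0.57 in CD41pos (adjusted p = 0.123) and -0.83 ± 0.56 in CD41neg cells (adjusted p = 0.374).

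H2-Ab1, the beta chain of I-A, measured 56.0, 127 and 69.8 CPM in CD41pos KO 1, 2 and 3, against 97.7, 167 and 155 CPM in CD41pos WT 1, 3 and 4. Its CD41neg levels were 83.5, 150.3 and 84.0 CPM in KO 1, 2 and 3, against 186, 141 and 107 CPM in WT 2, 3 and 4. The same split between KO 2 and the other KO labels was present. The changes were -0.73 ± 0.34 (adjusted p = 0.143) and -0.45 ± 0.34 (adjusted p = 0.420).

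H2-Eb1, the beta chain of I-E, varied most of the 7 genes between the CD41pos KO libraries. It measured 5.76, 40.5 and 10.3 CPM in CD41pos KO 1, 2 and 3, against 27.7, 38.0 and 67.6 CPM in CD41pos WT 1, 3 and 4. In CD41neg cells it measured 14.9, 50.2 and 18.8 CPM in KO 1, 2 and 3, against 79.8, 43.4 and 40.4 CPM in WT 2, 3 and 4. The highest CD41pos KO library was 7.03 times the lowest, against 2.44 times among CD41pos WT libraries. The changes were -1.24 ± 0.66 (adjusted p = 0.198) and -0.96 ± 0.65 (adjusted p = 0.372). With the replicate number as a block, H2-Aa (-1.97, adjusted p = 0.0188), H2-Ab1 (-1.04, adjusted p = 0.0254) and H2-Eb1 (-1.95, adjusted p = 0.0188) were called in CD41pos cells, although the numbers do not pair the WT libraries. The I-E alpha chain gene H2-Ea was not analysed here. Without CD41pos KO 2, H2-Aa and H2-Eb1 passed in CD41pos cells, at -2.33 (adjusted p = 0.0305) and -2.47 (adjusted p = 0.0405).

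The H2-DM genes, whose product edits the peptide cargo, varied little between replicates. H2-DMb1 measured 38.2, 47.1 and 38.4 CPM in CD41pos KO 1, 2 and 3, against 62.7, 87.2 and 78.8 CPM in CD41pos WT 1, 3 and 4, and fell by 0.89 ± 0.15 on the log2 scale (adjusted p = 0.00466). Levels in CD41neg cells were 36.5, 35.2 and 34.7 CPM in KO 1, 2 and 3, against 52.2, 46.4 and 42.0 CPM in WT 2, 3 and 4. In CPM every KO library again lay below every WT library, with a change of -0.40 ± 0.15 that did not pass (adjusted p = 0.117), whereas in TPM the groups overlapped (91.3 to 99.6 TPM in CD41neg KO and 91.2 to 135 TPM in CD41neg WT cells). The CD41pos call of H2-DMb1 was kept in all 12 other settings and all 12 fits that leave out 1 library, whereas without both gates of KO 3 it had adjusted p = 0.0528, beside 0.0578 for Cd74.

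H2-DMa measured 111, 124 and 107 CPM in CD41pos KO 1, 2 and 3, against 145, 159 and 158 CPM in CD41pos WT 1, 3 and 4, a change of -0.44 ± 0.11 (adjusted p = 0.0204). In CD41neg cells it measured 124, 112.4 and 116 CPM in KO 1, 2 and 3, against 110.4, 96.0 and 112.0 CPM in WT 2, 3 and 4. In CPM the KO libraries thus lay below WT in CD41pos cells and just above WT in CD41neg cells, where the change was 0.15 ± 0.11 (adjusted p = 0.422). In TPM the CD41pos groups overlapped, with 36.8 to 41.7 TPM in CD41pos KO and 37.9 to 52.4 TPM in CD41pos WT cells, and limma on log2(TPM + 1) gave -0.23 (adjusted p = 0.236) for H2-DMa. The CD41pos call was lost in 6 of 12 other settings and without CD41pos KO 1 (adjusted p = 0.0709) or CD41pos KO 3 (adjusted p = 0.0861). In WT both H2-DM genes were higher in CD41pos than in CD41neg cells, H2-DMa by 0.54 ± 0.11 (adjusted p = 0.0160) and H2-DMb1 by 0.70 ± 0.15 (adjusted p = 0.0207), opposite to Cd74. In KO the same comparison gave -0.05 ± 0.11 for H2-DMa (adjusted p = 0.951) and 0.22 ± 0.15 for H2-DMb1 (adjusted p = 0.643). The calls of these genes and of Cd74 between the WT gates were lost when only the WT libraries entered the fit. Leaving out 1 library ended that of H2-DMa in 1 of 12 fits (adjusted p = 0.0529 without CD41neg WT 3) and that of H2-DMb1 in 3 (without CD41pos WT 4, CD41neg WT 3 or CD41neg WT 4, the last at 0.0759).

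Ciita, the transactivator gene, was the lowest of the 7, with 0.1 to 0.9 TPM across the 12 libraries and 74 to 774 reads. It measured 1.35, 6.51 and 2.49 CPM in CD41pos KO 1, 2 and 3, against 4.84, 4.18 and 13.0 CPM in CD41pos WT 1, 3 and 4. In CD41neg cells it measured 2.94, 10.7 and 4.78 CPM in KO 1, 2 and 3, against 9.43, 7.40 and 7.61 CPM in WT 2, 3 and 4. KO 2 was again the highest KO library, and in CD41neg cells it lay above all 3 WT libraries. The changes were -1.09 ± 0.61 in CD41pos (adjusted p = 0.217) and -0.41 ± 0.60 in CD41neg cells (adjusted p = 0.704). Leaving out a library or both gates of a KO label moved the CD41pos value between -1.93 and -0.39, and it was -0.19 for Ciita without the 4 WT libraries that stand apart.

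**Figure D2:**
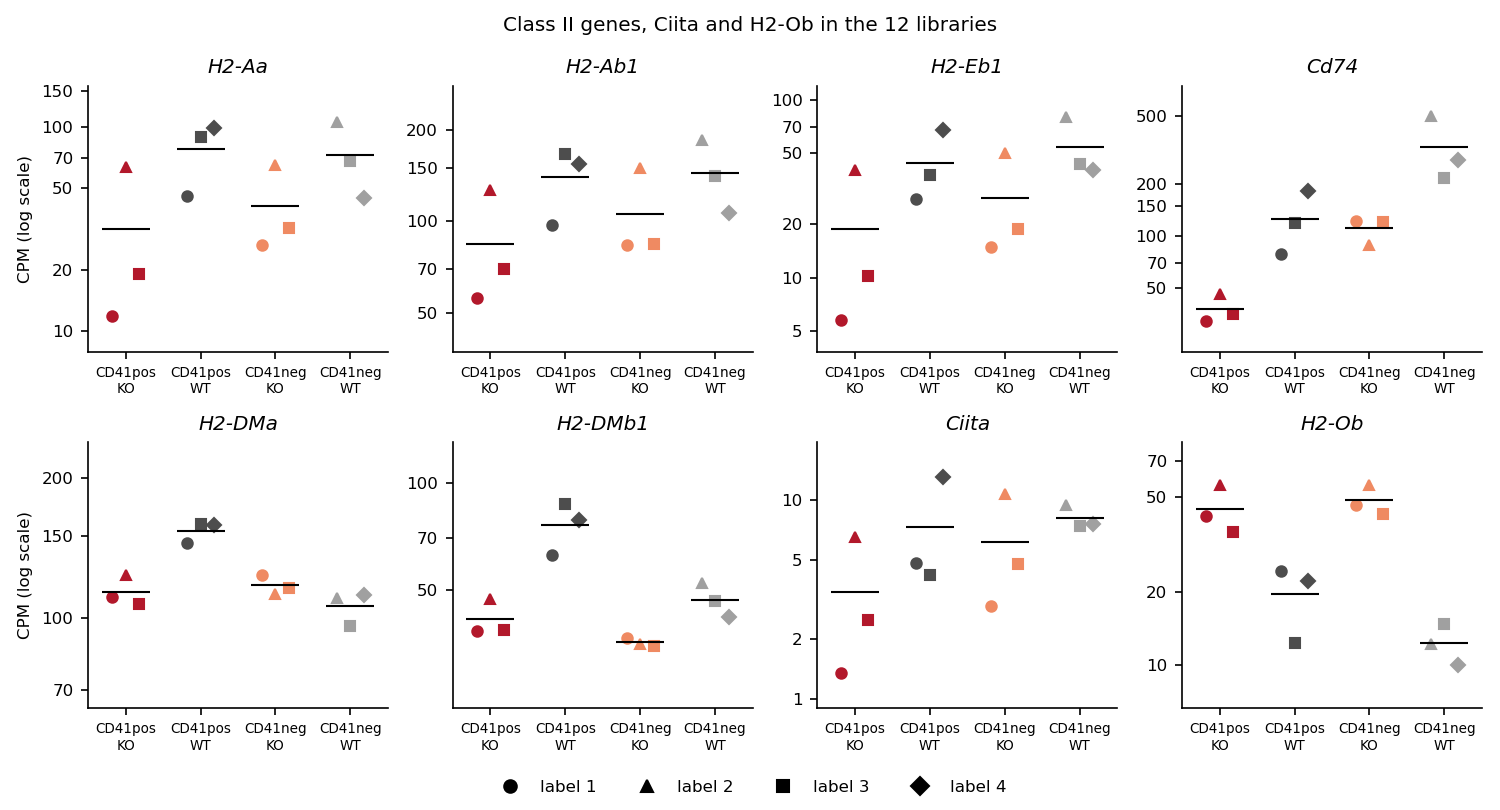
CPM (log scale, y axis) of the 7 genes and of H2-Ob in the 12 libraries by group (x axis), with a marker shape for each replicate label and a line at the group mean. Cd74 and H2-DMb1 show every KO library below every WT library of the gate, H2-Ob shows the opposite, and the triangle of KO 2 stands above KO 1 and KO 3 for H2-Aa, H2-Ab1, H2-Eb1 and Ciita.

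Counted together, 3 of the 7 genes (Cd74, H2-DMa and H2-DMb1) passed in CD41pos KO against CD41pos WT, all lower, where 17.1% of all genes tested passed and 7.27% passed as lower. All 3 CD41pos KO libraries lay below the 3 CD41pos WT libraries for the same 3 genes, as for 22.4% of all genes tested. In CD41neg KO against CD41neg WT 1 gene (Cd74) passed, where 7.82% of all genes passed and 3.97% passed as lower. There all 3 KO libraries lay below WT for 2 of the 7 (Cd74 and H2-DMb1), as for 17% of all genes tested. The median log2 fold change of the 7 genes was -1.09 in CD41pos and -0.45 in CD41neg cells, against -0.08 and -0.03 over all genes tested. All 7 estimates were below 0 in CD41pos cells and 6 in CD41neg cells, as were 54.7% and 51.8% of all genes tested. In CD41pos WT against CD41neg WT 3 of the 7 passed (5.59% of all genes), Cd74 lower and both H2-DM genes higher. Each group enters both a genotype and a gate comparison, so these comparisons share libraries.

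The difference between the gates in the effect of the genotype was tested as an interaction. None of the 7 genes passed, and none of the 19395 genes did (0% called by edgeR's quasi-likelihood test), with 2 of the 7 and 1093 of all genes at an unadjusted p below 0.05. DESeq2 called 72 of all genes and none of the 7. The largest among the 7 relative to its error was H2-DMa at -0.58 ± 0.15 (adjusted p = 0.663). The other was H2-DMb1 at -0.49 ± 0.21 (adjusted p = 0.872). For Cd74 the interaction was -0.17 ± 0.46 (adjusted p = 0.968). The KO against WT differences were therefore not shown to differ between the gates for these genes.

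**Figure D3:**
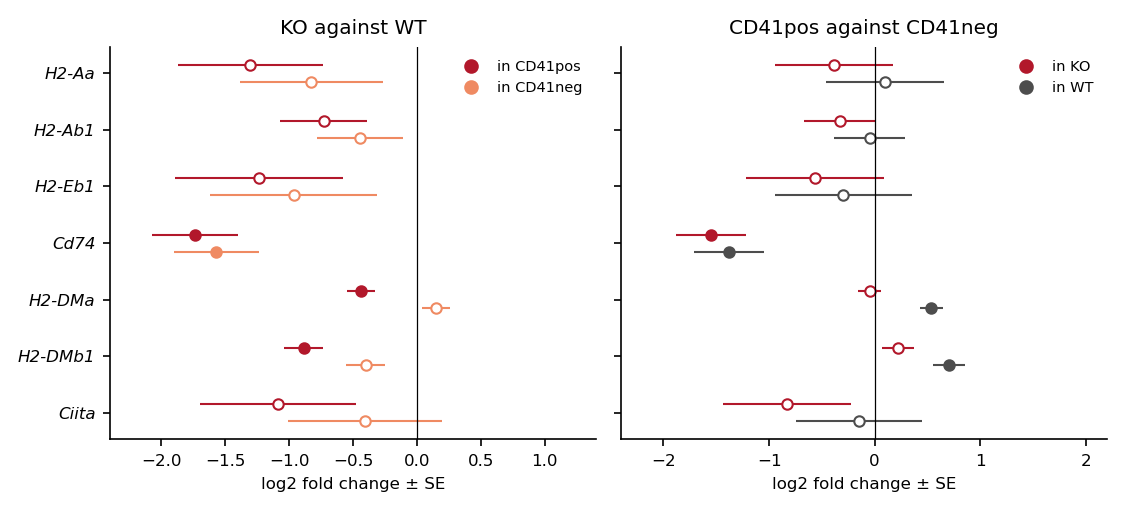
Log2 fold change ± SE (x axis) of the 7 genes for KO against WT in each gate (left) and for CD41pos against CD41neg in each genotype (right), with filled points where the adjusted p is below 0.05. Cd74 is filled and below 0 in all 4 comparisons, and the H2-DM genes are filled above 0 between the WT gates.

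The KO libraries carry the same labels (KO 1 to KO 3) in both gates, and on the basis of these labels the gates were compared label by label. CD41pos cells held less of H2-Aa, H2-Ab1, H2-Eb1, Cd74 and Ciita than CD41neg cells within every KO label. The share of all genes that did so was not counted. In KO 1, 2 and 3, CD41pos cells held 0.261, 0.521 and 0.293 times as much Cd74 as CD41neg cells of the same label, and 0.459, 0.609 and 0.522 times as much Ciita. For H2-Eb1 these ratios were 0.386, 0.808 and 0.546, and for H2-Ab1 they were 0.670, 0.847 and 0.830. The H2-Aa ratio was near 1 in KO 2 (0.979) and lower in KO 1 (0.451) and KO 3 (0.597).

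The unpaired fit called 1 of the 7 genes, Cd74, between the KO gates, where 2.79% of all genes tested were called and 1.23% as lower. A fit of the KO libraries alone with the label as a block, added after seeing the data, called 4 of the 7 as lower in CD41pos KO than in CD41neg KO cells, where 4.91% of all genes were called as lower. These were Cd74 at -1.54 ± 0.19 (adjusted p = 0.00518), Ciita at -0.91 ± 0.19 (adjusted p = 0.0267), H2-Eb1 at -0.83 ± 0.20 (adjusted p = 0.0461) and H2-Ab1 at -0.35 ± 0.09 (adjusted p = 0.0466). H2-Aa was at -0.62 ± 0.20 (adjusted p = 0.102). With the label as a block and all 12 libraries in the fit, Cd74 alone was called (adjusted p = 0.0379), with adjusted p = 0.329 for Ciita, 0.255 for H2-Eb1 and 0.374 for H2-Ab1. The H2-DM genes were not called, with H2-DMa at -0.04 ± 0.08 (adjusted p = 0.813) and H2-DMb1 at 0.22 ± 0.10 (adjusted p = 0.243).

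**Figure D4:**
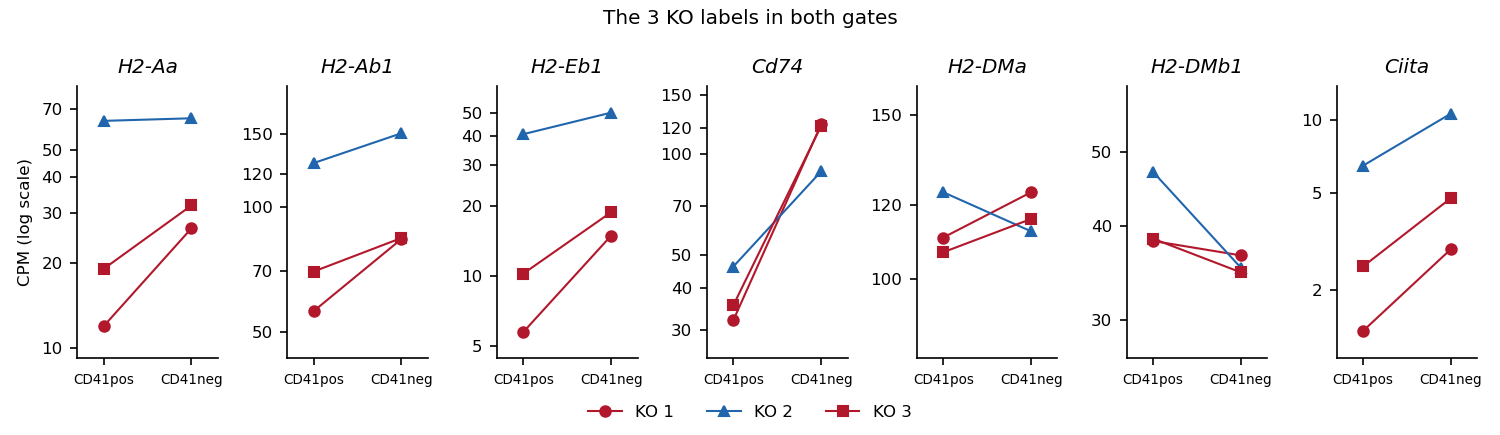
CPM (log scale, y axis) of the 7 genes in the CD41pos and CD41neg libraries (x axis) of KO 1 (circles), KO 2 (blue triangles) and KO 3 (squares), with a line joining the libraries of 1 label. The CD41pos points lie below the CD41neg points of their label for Cd74, Ciita and the chain genes, and the KO 2 line of H2-Aa is nearly flat at 63.3 and 64.7 CPM.

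The split among the KO labels was followed further, a choice made after its values were seen. KO 2 was the highest KO library in both gates for 4 of the 7 genes (H2-Aa, H2-Ab1, H2-Eb1 and Ciita), as for 18.2% of all genes tested. Relative to the mean of KO 1 and KO 3, KO 2 held 4.09 times as much H2-Aa in CD41pos and 2.22 times as much in CD41neg cells, 5.06 and 2.98 times as much H2-Eb1, 2.03 and 1.79 times as much H2-Ab1, and 3.39 and 2.77 times as much Ciita. Cd74 did not follow, at 1.37 times in CD41pos and 0.728 times in CD41neg cells, nor did H2-DMa (1.14 and 0.938 times) and H2-DMb1 (1.23 and 0.988 times). Among 15 class I presentation genes, KO 2 was the highest KO library in both gates for 14. They included Nlrc5, the class I counterpart of Ciita (1.66 and 1.80 times), the peptide transporter gene Tap1 (1.47 and 1.61 times) and the immunoproteasome gene Psmb9 (1.41 and 1.73 times). Of the 14 regulators of Ciita on the list, KO 2 was the highest in both gates for 4 (28.6%), Irf1 among them, an interferon-induced transcription factor, at 2.09 and 1.67 times. Others lay below 1 in both gates, such as Spi1 (0.710 and 0.463 times), the interferon-gamma receptor gene Ifngr2 (0.658 and 0.645 times) and Irf4 (0.477 and 0.618 times). KO 2 also differed from KO 1 and KO 3 in Xist (above) and in the Y-linked gene Ddx3y, with 0.161 and 0.155 CPM in KO 2 against 83.4 to 103 CPM in KO 1 and KO 3. In CD41neg cells KO 2 was below KO 1 and KO 3 in 9 of the 10 HSC markers, among them Hlf (70.4 CPM, against 237 and 234 CPM), Procr (17.0 CPM, against 73.3 and 73.05 CPM), Mecom (21.0 CPM, against 95.4 and 99.4 CPM) and Fgd5 (5.11 CPM, against 30.6 and 35.2 CPM). In CD41pos cells Procr was at 6.24 CPM in KO 2, against 22.8 and 19.9 CPM in KO 1 and KO 3. The part of these differences in the class II values was not tested between labels. With the summed level of Y-linked genes as a covariate, the changes in CD41pos cells were -1.75 for Cd74 (adjusted p = 0.00820), -1.43 for H2-Aa (adjusted p = 0.0866) and -1.45 for H2-Eb1 (adjusted p = 0.104).

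**Figure D5:**
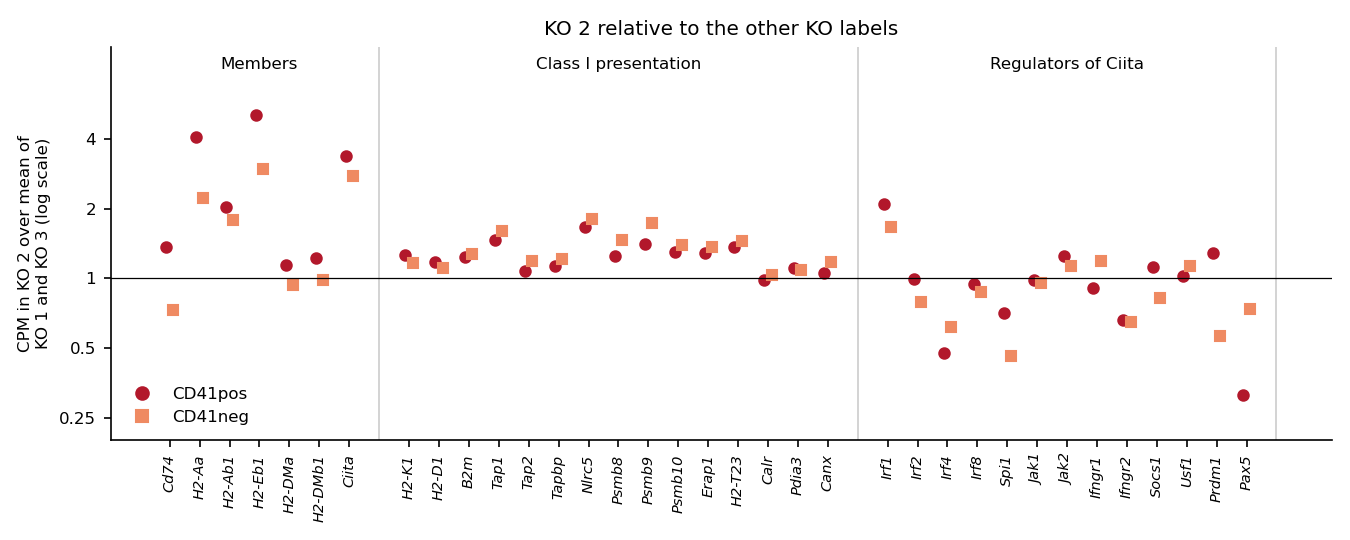
CPM in KO 2 divided by the mean of KO 1 and KO 3 (log scale, y axis) in CD41pos (circles) and CD41neg cells (squares) for the 7 genes, 15 class I presentation genes and 13 of the regulators of Ciita (x axis). H2-Aa, H2-Ab1, H2-Eb1, Ciita, Nlrc5 and Irf1 lie above 1.6 in both gates, whereas Cd74 and the H2-DM genes lie on both sides of 1.

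Among the other class II region genes, H2-Ob, which encodes the beta chain of the H2-DM inhibitor H2-O, rose in KO cells of both gates while Cd74 fell. It measured 41.6, 55.7 and 35.7 CPM in CD41pos KO 1, 2 and 3, against 24.5, 12.3 and 22.3 CPM in CD41pos WT 1, 3 and 4 (1.17 ± 0.26, adjusted p = 0.0131). In CD41neg cells it measured 46.3, 56.0 and 42.4 CPM in KO 1, 2 and 3, against 12.2, 14.8 and 9.96 CPM in WT 2, 3 and 4 (1.97 ± 0.27, adjusted p = 0.00313). All KO libraries lay above all WT libraries of their gate. The CD41pos call did not pass without CD41pos KO 2 (adjusted p = 0.0644). H2-Oa, the alpha chain gene of the same heterodimer, did not pass, at 14.0 ± 1.11 CPM in CD41pos KO and 15.7 ± 0.966 CPM in CD41pos WT cells (-0.16 ± 0.18, adjusted p = 0.541), and at 20.1 ± 1.18 CPM in CD41neg KO and 13.4 ± 2.78 CPM in CD41neg WT cells (0.59 ± 0.18, adjusted p = 0.0620). H2-DMb2, the paralog of H2-DMb1, fell in CD41pos KO cells (2.87 ± 0.191 CPM in KO and 6.35 ± 1.79 CPM in WT, -1.14 ± 0.32, adjusted p = 0.0319), a call that was lost with the term for these WT libraries (adjusted p = 0.0721) or, at its highest, without CD41pos KO 3 (adjusted p = 0.105). Of the 5 region genes tested, 1 rose and 1 fell in CD41pos cells and 1 rose in CD41neg cells, and their medians of -0.16 and 0.59 compare with -0.08 and -0.03 over all genes.

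Of the 8 genes of the complex that binds class II promoters, 1 rose and 1 fell in each gate and 6 did not pass, beside 17.1% of all genes that passed in CD41pos and 7.82% in CD41neg cells. Creb1, the CREB subunit, rose by 1.29 ± 0.19 in CD41pos KO (adjusted p = 0.00276) and by 1.10 ± 0.19 in CD41neg KO cells (adjusted p = 0.00783). It measured 129 CPM on average in CD41pos KO and 52.8 CPM in CD41pos WT cells. Rfxank, an RFX subunit, fell by 0.41 ± 0.12 in CD41pos KO (adjusted p = 0.0422) and by 0.56 ± 0.12 in CD41neg KO cells (adjusted p = 0.0211). The CD41pos call of Rfxank was lost in 8 of 12 fits that leave out 1 library (at most adjusted p = 0.135, without CD41pos KO 2) and that in CD41neg cells in 4 (at most 0.0768, without CD41neg WT 4).

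Of 14 regulators of Ciita, 1 rose, 4 fell and 9 did not pass in CD41pos KO cells, and 3 fell and 11 did not pass in CD41neg KO cells, where 17.1% and 7.82% of all genes passed in either direction. Irf8, a myeloid and lymphoid transcription factor, fell by 0.98 ± 0.19 in CD41pos (adjusted p = 0.00752) and by 1.04 ± 0.19 in CD41neg KO cells (adjusted p = 0.0101). It averaged 35.5 CPM in CD41pos KO and 70.05 CPM in CD41pos WT cells, and 19.5 CPM in CD41neg KO and 40.03 CPM in CD41neg WT cells. Both calls were lost in 3 of 12 other settings, the fits of log2 TPM. Spi1, which encodes PU.1, fell in CD41pos KO cells (-1.19 ± 0.27, adjusted p = 0.0133, and 0.0651 without CD41pos KO 2). Irf4 fell in both gates (-1.57 ± 0.43, adjusted p = 0.0290, and -3.01 ± 0.43, adjusted p = 0.00368), and was at most 1.61 CPM in any CD41pos library. Its CD41pos call was lost with the same term (adjusted p = 0.103) or, at its highest, without CD41pos KO 2 (adjusted p = 0.114). Jak2, a kinase of the interferon-gamma receptor, rose in CD41pos KO cells (1.11 ± 0.29, adjusted p = 0.0232, and 0.0878 without CD41pos KO 2). Prdm1, which encodes the Ciita repressor BLIMP1 and is also high in plasma cells, fell in CD41neg KO cells (-2.45 ± 0.66, adjusted p = 0.0423). This call was lost in 8 of 12 other settings, among them that term (-0.57, adjusted p = 0.504), and in 9 of 12 fits that leave out 1 library (at most adjusted p = 0.129, without CD41neg WT 2). The median of the 14 genes was 0.05 in CD41pos and 0.06 in CD41neg cells.

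Downstream of the class II genes, 2 of 11 processing and turnover genes fell in CD41pos KO cells and 1 in CD41neg KO cells, with none higher, where 7.27% and 3.97% of all genes passed as lower. Ctsl, which encodes cathepsin L, a protease that trims the invariant chain, was the one lower in both, at -0.86 ± 0.18 (adjusted p = 0.00907) and -1.13 ± 0.18 (adjusted p = 0.00528). Like Cd74 it was lower in CD41pos than in CD41neg cells, by -0.72 ± 0.18 in KO (adjusted p = 0.0499) and -0.99 ± 0.18 in WT (adjusted p = 0.00863). The KO value was lost in 9 of 12 fits that leave out 1 library (at most adjusted p = 0.213, without CD41pos KO 2). Mif, a cytokine gene whose product binds CD74, fell in CD41pos KO cells (-0.69 ± 0.22, adjusted p = 0.0498), a call that was lost in 7 of 12 other settings and in 9 of 12 fits that leave out 1 library (at most adjusted p = 0.155, without CD41pos WT 3). Of 15 class I presentation genes, 1 rose (Canx, a chaperone gene, 0.64 ± 0.12, adjusted p = 0.00599) and 1 fell (Tap2, a peptide transporter gene, -0.62 ± 0.13, adjusted p = 0.0103) in CD41pos KO cells and none passed in CD41neg cells. Their median changes were -0.16 and -0.11. Of all genes tested, 17.1% passed in either direction in CD41pos and 7.82% in CD41neg cells. Of 8 costimulation genes, Cd274, which encodes the inhibitory ligand PD-L1, rose in both gates (1.49 ± 0.36, adjusted p = 0.0169, and 1.64 ± 0.36, adjusted p = 0.0208). The calls of Cd274 did not pass without CD41pos KO 3 (adjusted p = 0.0559) and without CD41neg WT 4 (adjusted p = 0.0760), each the highest of such fits.

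Markers of other class II expressing cells were read beside these values, as summed CPM over each list. The 12 B cell genes summed to 75.2 to 97.4 CPM in CD41pos KO and 115 to 119 CPM in CD41pos WT cells, and to 74.6 to 158 CPM in CD41neg KO and 124 to 221 CPM in CD41neg WT cells, with none of the 12 called between genotypes in either gate. Ms4a1, which encodes CD20, was at most 2.55 CPM in any library. Between the WT gates, Blnk (-2.69, adjusted p = 0.0139) and Cd79a (-2.56, adjusted p = 0.0415) were lower in CD41pos cells, where 5.59% of all genes passed. The Cd79a call was lost in 7 of 12 fits that leave out 1 library. None of the 12 passed between the KO gates. Their median change in CD41pos against CD41neg cells was -1.46 in WT and -1.30 in KO. The 6 plasma cell genes with a value summed to 235 to 277 CPM in CD41pos KO and 331 to 873 CPM in CD41pos WT cells, and to 201 to 313 CPM in CD41neg KO and 519 to 3623 CPM in CD41neg WT cells, with 2 (Jchain and Tnfrsf17) and 5 of them lower in KO. Of all genes tested, 7.27% passed as lower in CD41pos KO and 3.97% in CD41neg KO cells. With the term for the 4 WT libraries that stand apart, 1 of the 2 calls (Tnfrsf17, adjusted p = 0.0855) and 3 of the 5 (Mzb1, 0.397, Xbp1, 0.0703, and Tnfrsf17, 0.0513) were lost. Jchain, the joining chain gene of antibodies, measured 2822, 276 and 2346 CPM in CD41neg WT 2, 3 and 4. The 10 conventional dendritic cell genes summed to 214 to 241 CPM in CD41pos KO and 247 to 337 CPM in CD41pos WT cells, and to 209 to 280 CPM in CD41neg KO and 237 to 270 CPM in CD41neg WT cells. Their defining markers Itgax, Xcr1, Clec9a and Batf3 were at most 2.05 CPM in any library, and most of the sum was Cst3, which many cells express. Zbtb46, a transcription factor of these cells, was lower in CD41pos than in CD41neg cells, as Cd74 was, with 4.71 to 13.1 CPM in CD41pos KO and 33.2 to 38.1 CPM in CD41neg KO cells (-2.03 ± 0.32, adjusted p = 0.00482), and 8.47 to 13.7 CPM in CD41pos WT and 41.1 to 59.9 CPM in CD41neg WT cells (-2.11 ± 0.32, adjusted p = 0.00366). Flt3, which progenitors also express, was at 4.55 to 49.7 CPM over the libraries. Of the 10, Clec10a alone passed between genotypes, higher in CD41neg KO cells, and Zbtb46 alone passed between gates. The median change of the 10 in CD41pos against CD41neg cells was 0.29 in WT and -1.21 in KO. Over all genes tested these medians were 0.01 and -0.02.

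The 8 plasmacytoid dendritic cell genes summed to 117 to 125 CPM in CD41pos KO and 158 to 221 CPM in CD41pos WT cells, and to 118 to 135 CPM in CD41neg KO and 130 to 154 CPM in CD41neg WT cells. Siglech, their defining marker, was at most 0.97 CPM, Bst2 alone fell (in CD41pos KO cells), and Klk1 was at 0 in 3 of the 4 groups. The 14 monocyte and macrophage genes summed to 218 to 332 CPM in CD41pos KO and 293 to 362 CPM in CD41pos WT cells, and to 106 to 371 CPM in CD41neg KO and 196 to 345 CPM in CD41neg WT cells. Of these, 2 (Ly86 and Cx3cr1) fell in CD41pos and 1 (Cx3cr1) in CD41neg KO cells, where 7.27% and 3.97% of all genes passed as lower. The 8 T and NK cell genes with a value summed to 79.2 to 138 CPM in CD41pos KO and 228 to 300.3 CPM in CD41pos WT cells, and to 48.8 to 86.4 CPM in CD41neg KO and 83.6 to 139 CPM in CD41neg WT cells, most of it Nkg7, which fell in CD41pos KO cells. Several of these sums were lower in KO libraries, as Cd74 was. Between the WT gates, Zbtb46, the B cell genes Blnk and Cd79a and the plasma cell gene Sdc1 (-1.85, adjusted p = 0.0493) were lower in CD41pos cells. The Sdc1 call was lost in 11 of 12 fits that leave out 1 library. Nkg7 was higher in CD41pos WT than in CD41neg WT cells (1.28, adjusted p = 0.00947). Between the KO gates, Zbtb46 alone of these cell type lists passed, lower in CD41pos cells. The part of these genes in the class II values was not tested.

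The 7 genes did not vary as 1 block across the 12 libraries. On the scale of log2(CPM + 1), H2-Aa, H2-Ab1, H2-Eb1 and Ciita had pairwise Pearson correlations between 0.83 and 0.98, while Cd74 correlated with them at 0.66 to 0.73. H2-DMa and H2-DMb1 correlated with each other at 0.79, and Cd74 with H2-DMa at -0.02. These values are descriptions over 12 libraries, 6 of which share KO labels. Among 10480 genes, those closest to the mean profile of the 7 were Aldh1a1 (0.85), Bbc3 (0.84), Tsix (0.84), Xist (0.83) and Tapbpl (0.82), and those closest to Ciita alone were Glyctk (0.88), Tapbpl (0.87) and Zbp1 (0.86). Xist and its antisense partner Tsix were near 1 CPM in KO 1 and KO 3 and high in KO 2 and in WT, the same libraries in which the chain genes were low and high. Of the 6 WT libraries, 4 also held 11.2 to 38.9 CPM of Ddx3y. Tapbpl, a peptide editor gene of class I, measured 44.4, 59.1 and 49.7 CPM in CD41pos KO 1, 2 and 3, against 67.1, 56.4 and 78.3 CPM in CD41pos WT 1, 3 and 4, and 48.0, 65.3 and 50.1 CPM in CD41neg KO 1, 2 and 3, against 59.5, 59.6 and 61.3 CPM in CD41neg WT 2, 3 and 4.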

How the data were processed

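RNA-seq of 12 libraries in 4 groups, by genotype and CD41 gate, was analysed. The labels' protocols name FACS, the miRNeasy Micro kit and the SMART-Seq v4 kit, which does not mark the strand. The submitters' processing notes name FastQC 0.11.7, cutadapt 1.9.1, STAR 2.6.1e, featureCounts 1.6.2 and mm10, with no settings or annotation given in the sources used here. Per the labels and values, the authors deposited whole-number counts per gene, used for all main tests, and TPM values of the same genes, used for levels per length and as an alternative. Gene names turned into dates (27 of the counted genes) were restored from the TPM table. Of 35869 genes, 19395 passed filterByExpr and 16474 were left out. With edgeR 4.0.16 (R 4.3.3) scaling was by TMM, and a single quasi-likelihood model with 4 group means was fitted to all 12 libraries, from which 5 two-sided contrasts were drawn. P-values were adjusted by Benjamini-Hochberg, with a threshold of 0.05. The test was checked on simulated counts of independent libraries with the same dispersion for all genes. That simulation held no split within WT and no shared labels, so it does not give error rates for these data.

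The 7 genes and the 13 lists (6 pathway and 7 marker lists, 134 entries, 4 without a row) were chosen with earlier results of these data known. Named genes were all 7 members, up to 4 genes per list and comparison with the smallest adjusted p, Runx1 and Itga2b as label checks, and the nearest genes by Pearson r among genes of at least 5 CPM. Nr4a1, Ddx3y and the KO 2 ratios were chosen after their values were seen. A gene of the lists is not reported here. Alternatives tried were edgeR with the size factors of DESeq2, DESeq2 1.42.0 itself, other filters, only the groups compared, replicate blocks, limma-trend (limma 3.58.1) on log2(TPM + 1) and log2(TPM + 0.1), a term for or without the 4 WT libraries, a Y-linked covariate, and each library left out.

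For pairing, deviations from group means over 11386 genes correlated across gates at 0.43, 0.61 and 0.47 for KO 1, 2 and 3, and at 0.098 and -0.48 for the labels shared by WT libraries. Libraries of different labels were not correlated, and KO 2 stood apart from KO 1 and KO 3 in both gates. These values therefore do not show that KO 1 and KO 3 pair across the gates. The KO labels were taken to pair samples because the titles give them to libraries of both gates. The WT labels, with these low correlations, were not. In each of 12 replicate pairs the counts differed beyond sampling noise.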

Additional observations from a re-analysis of the deposited data

Results flagged for a closer look

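H2-DMa stood on opposite sides of WT in the 2 gates, with all 3 KO libraries below WT in CD41pos cells (114 ± 8.93 CPM in KO and 154 ± 8.16 CPM in WT) and all 3 above WT in CD41neg cells (117 ± 5.84 CPM in KO and 106 ± 8.84 CPM in WT, SD, n = 3 each). The interaction was -0.58 ± 0.15, with adjusted p = 0.663 by edgeR's quasi-likelihood test, so the difference did not pass. In TPM the CD41pos groups overlapped, with 36.8 to 41.7 TPM in KO and 37.9 to 52.4 TPM in WT. In CD41neg cells the closest libraries were 112.4 CPM in KO 2 and 112.0 CPM in WT 4.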

How the results depend on the processing

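The number of the 7 genes called in CD41pos KO against CD41pos WT was 3. It was 5 with the replicate number as a block and 1 on unfiltered log2(TPM + 1), and between 0 and 5 when a library or both gates of a KO label were left out (5 without CD41pos KO 2, 0 without both gates of KO 3). The main fit called 3309 of all 19395 genes. With the replicate number as a block 957 were called, and on unfiltered log2(TPM + 1) 1337 of 31143. Without CD41pos KO 2 1010 of 19395 were called, and without both gates of KO 3 502. In CD41neg cells the count of 1 was 0 with that block, in 3 TPM fits and with the term for the 4 WT libraries, and 0 to 1 with libraries left out (0 without CD41neg KO 1, 2 or 3 or CD41neg WT 2). There the main fit called 1517 of all 19395 genes, that block 458 and that term 1683. Between the WT gates the count of 3 was 0 with only the groups compared, with either replicate block and on unfiltered TPM, 1 on log2(TPM + 1) and log2(TPM + 0.1), and 0 to 3 with libraries left out. Of all 19395 genes, the main fit called 1084 and that of only the groups compared 190. The blocks by replicate number and by animal label called 378 and 42. Between the KO gates the count of 1 was 0 in 3 TPM fits, 4 with the KO libraries alone and the label as replicate block, and 0 to 1 with libraries left out. Of all 19395 genes, the main fit called 541 and the KO libraries alone 2227. The interaction count of 0 was kept in the fits with more than 1 library in every group. Without the 4 WT libraries the interaction of H2-DMa was -0.69. In that fit the lone WT library of a gate is taken to vary as other groups do, so no count is given. The cause of these moves was not tested.

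Between the WT gates, uncalled estimates changed sign with the number as replicate block (H2-Ab1 0.32, H2-Eb1 0.38, Ciita 0.27), with the animal label as replicate block (H2-Ab1 0.39, H2-Eb1 0.28) and without the 4 WT libraries (H2-Ab1 0.18). The interaction of Ciita was 0.074 and Mzb1 in CD41neg KO against CD41neg WT 0.23 without those libraries. With libraries left out, signs changed within these ranges. Between the WT gates they were -0.16 to 0.48 for H2-Aa, -0.22 to 0.19 for H2-Ab1, -0.73 to 0.10 for H2-Eb1 and -0.85 to 0.15 for Ciita. Between the KO gates they were -1.41 to 0.11 for H2-Aa, -0.75 to 0.010 for H2-Ab1, -1.80 to 0.16 for H2-Eb1 and -0.14 to 0.014 for H2-DMa. For the interaction they were -0.58 to 0.20 for Cd74, -1.50 to 0.015 for H2-Aa, -0.71 to 0.057 for H2-Ab1, -1.51 to 0.46 for H2-Eb1 and -1.52 to 0.022 for Ciita. Of 966 alternative values of single genes, 854 kept direction and side of the threshold, 70 lost a call, 12 gained one and 30 changed sign. Another scaling moved the median of all genes by at most 0.0252 on the log2 scale. Ciita, with as few as 74 reads in a library, is the gene that depth limits most.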
